A study of Mus musculus with 16 samples.

Results

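Deletions at a mouse hotspot of meiotic recombination were compared between testes without the kinase ATM and wild-type testes, by their length, their junctions, the positions of their ends and their recurrence. The comparison rests on 8 of the 16 libraries of the series: 4 from Atm-/- mice and 4 from Atm+/+ mice, chosen by the genotype in their labels and paired by amplicon number. The mice were adults of 2 to 5 months on a C57BL/6 background. DNA came from cell suspensions of whole testis, with spermatocytes named as the cell type. The sources used here do not give how many animals or genomes went into a library, or whether the amplicons of a genotype share 1 DNA preparation. All of the suspension was taken from mutant testes and a part of it from wild-type testes. The measurements are of genomic DNA, so the labelled cell type could not be checked against marker genes, and more spermatocytes per suspension cannot be told apart from more deletions per spermatocyte. Each genotype was amplified as 4 overlapping PCR products, called amplicons 1 to 4, about 580 bp in length and run for 22 cycles.

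In meiosis SPO11 cuts both DNA strands at hotspots, and the breaks are normally repaired by recombination with an intact partner chromosome. ATM is activated by these breaks and restrains further cutting, so that spermatocytes without it carry many more breaks and arrest before they complete meiosis. A deletion can arise where 2 ends are joined directly and the DNA between or beside them is lost. Junctions may hold microhomology, a few bases that were present at both ends of the lost piece and remain as a single copy.

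Together the amplicons read 869 bp of chromosome 1, from 33764688 to 33765556 in mm10, within Zfp451 (gene ID 98403), which encodes a zinc finger protein. Its exons and introns were not analysed here. The region present in all 4 amplicons ran from 33764983 to 33765262. Positions are those of the files, whose first base may be numbered 0 or 1. In Atm-/- reads with no substitution, the densest ends described below lie in a piece of 160 bases inside that shared region. This piece, chr1:33764983-33765142, is printed in the direction of rising position. Its first capital run, 33764999 to 33765018, held the most left ends in Atm-/- in reads without substitutions, and its second, 33765050 to 33765069, the most right ends in the same reads.
Stretch with the densest ends: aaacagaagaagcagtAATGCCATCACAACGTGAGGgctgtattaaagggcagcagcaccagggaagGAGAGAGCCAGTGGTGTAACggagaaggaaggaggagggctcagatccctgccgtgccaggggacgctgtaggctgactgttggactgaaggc

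Depth was 3.07 to 3.71 in units of 1e6 reads in the 4 Atm-/- libraries and 3.25 to 5.10 in the 4 Atm+/+ libraries, so that 1 distinct deletion corresponded to 0.196 to 0.325 per 1e6 reads. A distinct deletion is a left-most start together with a length, whatever its number of reads. Reads carry no molecular identifiers, so all intervals below cover counting error only. The library names carry the letter B for Atm+/+ amplicons 1 and 2, the letter C for Atm+/+ amplicons 3 and 4 and no such letter for Atm-/-. The labels do not say what it stands for, and whatever it marks cannot be told apart from the genotype. Within Atm+/+ the letter cannot be told apart from the amplicons either. Many reads also carried substitutions: of those that had lost at least 11 bp, 15.9% of 1363 in Atm-/- and 8.03% of 1083 in Atm+/+ had none. The main measures are therefore given over all listed reads and over reads with no substitution. An end within the central 41 bp of an amplicon is called a mid-amplicon end. Counted per library over all reads, 264 of 472 deletions of at least 11 bp in Atm-/- and 127 of 168 in Atm+/+ had one. In Atm-/- the share was 47.2% to 66.7% across the libraries. In Atm+/+ it split by the letter in the library name: 53 of 64 and 73 of 86 in amplicons 1 and 2, but 0 of 12 and 1 of 6 in amplicons 3 and 4.

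The first question was how much more often deletions were found without ATM, and of which size. Counted in reads with no substitution, the Atm-/- libraries held 36, 40, 43 and 31 distinct deletions of at least 11 bp in amplicons 1 to 4, and the Atm+/+ libraries 8, 12, 4 and 4. Per 1e6 reads these were 9.97, 13.0, 11.6 and 9.57 in Atm-/- against 1.57, 2.73, 1.19 and 1.23 in Atm+/+. The groups did not overlap, and the lowest Atm-/- library lay above the highest Atm+/+ library. The rate ratio was 6.35 in amplicon 1 (95% interval 2.90 to 15.8), 4.78 in amplicon 2 (2.46 to 10.0), 9.73 in amplicon 3 (3.54 to 37.3) and 7.78 in amplicon 4 (2.75 to 30.3). The intervals of all 4 amplicons overlap each other. The mean log2 difference was 2.69, or 6.45-fold, with Atm-/- higher in 4 of 4 amplicons (exact paired permutation test, two-sided, p = 0.125). This is the smallest p that 4 pairs allow, so the paired test cannot reach 0.05. The p-values here reflect only how the libraries vary among themselves, and that variation may be technical. With genotypes exchanged over all 8 libraries and no replicate block the exact permutation p was 0.0286, again the smallest possible.

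Over all listed reads the excess was less even. The rates were 32.1, 41.3, 34.2 and 31.5 distinct deletions per 1e6 reads in Atm-/-, against 12.6, 19.5, 3.57 and 1.84 in Atm+/+. The ratio was 2.56 in amplicon 1 (1.87 to 3.53) and 2.12 in amplicon 2 (1.60 to 2.82), but 9.58 in amplicon 3 (5.29 to 19.0) and 17.1 in amplicon 4 (7.58 to 47.6). The Atm-/- rates lay within 31.5 to 41.3 across amplicons, and the Atm+/+ rates split by the letter in the library name. The mean log2 difference was 2.41 (exact paired permutation p = 0.125, and 0.0286 with no replicate block). It was 1.21 in the pairs of amplicons 1 and 2, 3.60 in those of amplicons 3 and 4, and 3.11 counted from 30 bp up. The share of distinct deletions free of substitutions split the same way: it was 30.4% to 33.9% in the Atm-/- libraries, 12.5% and 14.0% in Atm+/+ amplicons 1 and 2, and 33.3% and 66.7% in amplicons 3 and 4, where the total was 12 and 6.

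**Figure D1:**
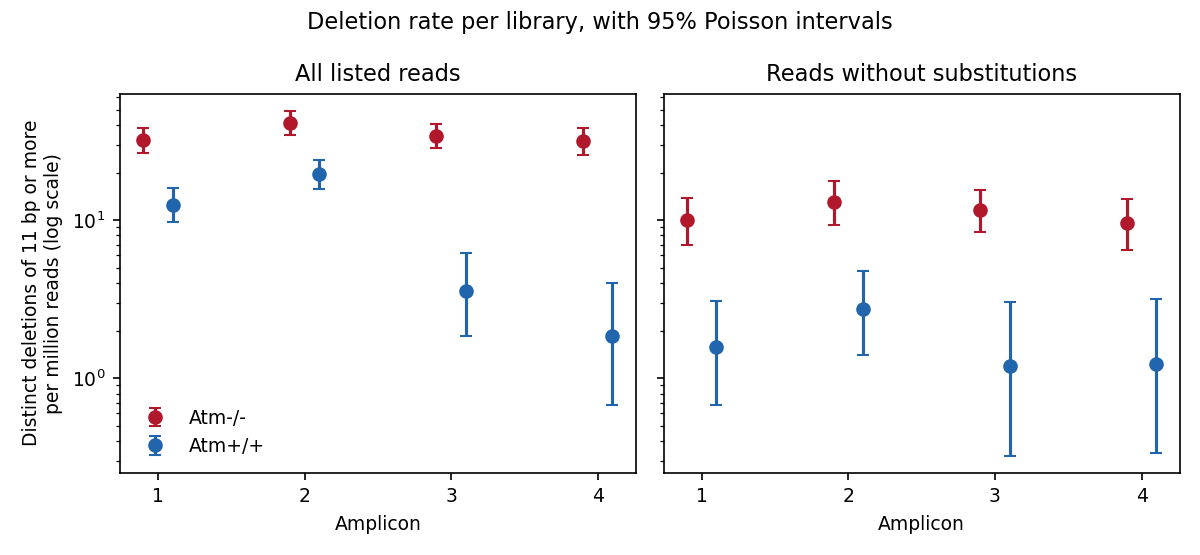
Rate per 1e6 reads (log axis) of distinct deletions of at least 11 bp, by amplicon, over all listed reads (left) and reads with no substitution (right), with 95% exact Poisson intervals. In both panels every Atm-/- library lies above the Atm+/+ library of its amplicon; the Atm+/+ points of amplicons 1 and 2 lie higher over all reads, at 12.6 and 19.5, than those of amplicons 3 and 4.

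Short deletions, of 2 to 10 bp, showed no such excess. Without substitutions they numbered 37.9, 37.1, 38.8 and 38.9 distinct per 1e6 reads in Atm-/- and 41.8, 44.7, 41.4 and 39.0 in Atm+/+. Atm-/- was slightly lower in 4 of 4 amplicons, by a mean log2 difference of -0.13, or 0.916-fold (exact paired permutation p = 0.125; 0.0286 with no replicate block). Over all reads the difference was -0.02 (exact paired permutation p = 1). Within a library, deletions of at least 11 bp thus made up 19.7% to 26.0% of all distinct deletions in Atm-/- and 2.80% to 5.74% in Atm+/+, counted in reads with no substitution. This share uses no read total, and its groups do not overlap either. Over all reads it was 29.1% to 34.6% against 2.76% to 17.6%.

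By length class, in reads with no substitution, the Atm-/- deletions spread over the whole range that was listed, and the Atm+/+ deletions left a gap. Deletions of 30 to 59 bp were the most frequent class in both, at 2.71 ± 0.78 distinct per 1e6 reads in Atm-/- and 0.84 ± 0.97 in Atm+/+ (SD, n = 4 each). In Atm+/+ this rests on amplicon 2, which held 10 of the 14; without it, a setting chosen after seeing the data, the mean was 0.37, below 0.47 for 150 to 199 bp. The class of 60 to 99 bp held 7, 6, 10 and 5 deletions in Atm-/- amplicons 1 to 4, a mean of 2.03 ± 0.48 per 1e6 reads. In Atm+/+ it held 0 in 4 of 4 amplicons. Set against a floor of 3 counts over the group, which covers counting error only, the Atm-/- mean was 10.9-fold that floor. Substituted reads included, the same class held 60 deletions in Atm-/- and again 0 in Atm+/+, with a mean of 23.7-fold the floor. The empty class depends on its lower bound. Atm+/+ deletions of 58 bp began at 33765296, 33765297 and 33765298, all in amplicon 2, and over all reads 1 of 59 bp began at 33764732. The next longer Atm+/+ deletion was of 106 bp. The bounds of the classes were set with results of these data known, and these counts were not tested.

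The other classes give 3.21 to 17.6 for the ratio of the mean rates in reads with no substitution. At the short end, 11 to 29 bp, 23 deletions in Atm-/- stood against 5 in Atm+/+, of which 4 were in amplicon 1. For 100 to 149 bp the counts were 21 against 2, for 150 to 199 bp 29 against 6, and for 200 to 229 bp 12 against 1. Counted over all reads, the class of 11 to 29 bp was close in mean, 5.25 ± 1.31 in Atm-/- and 5.07 ± 4.98 in Atm+/+ per 1e6 reads (SD, n = 4 each). The Atm+/+ mean there came from amplicons 1 and 2, and its lowest library was at 0.61.

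**Figure D2:**
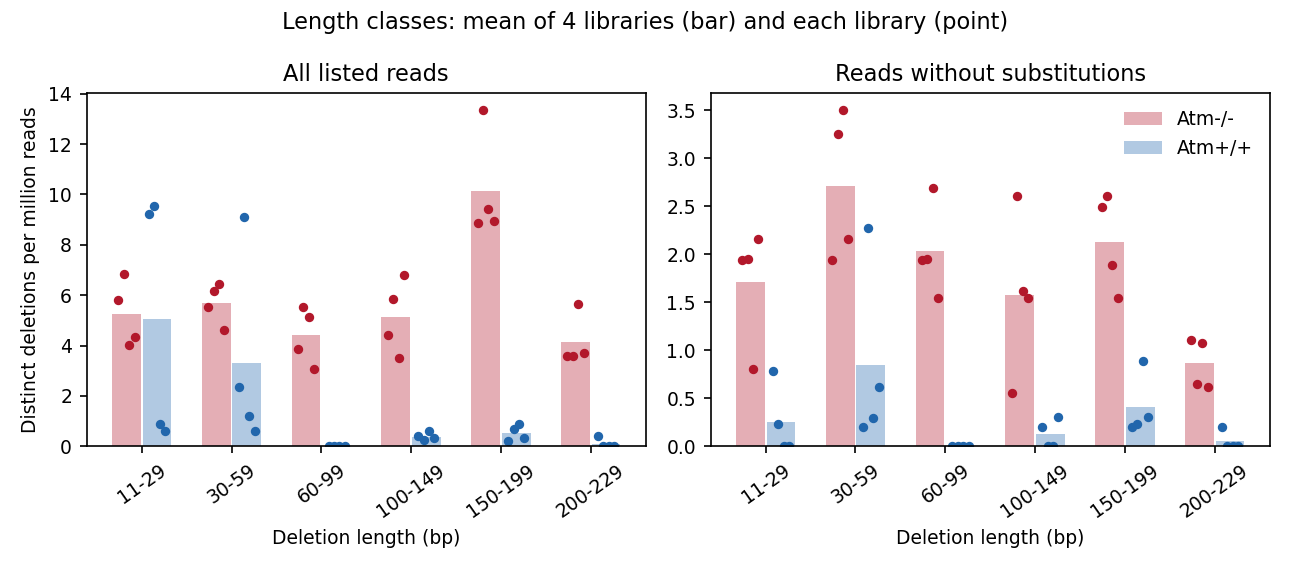
Distinct deletions per 1e6 reads in 6 length classes; bars are means of 4 libraries and points the libraries. In reads with no substitution (right) the Atm-/- points of the 60 to 99 bp class lie between 1.54 and 2.69, and all 4 Atm+/+ points are at 0.

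The median length depended on which reads were counted. With all reads the medians were 111.5, 120, 129 and 128 bp in Atm-/- and 26, 30, 43 and 38 bp in Atm+/+, a mean difference of 87.9 bp (exact paired permutation p = 0.125; 0.0286 with no replicate block). The groups did not overlap. The difference was 4.00 bp without the deletions that had a mid-amplicon end, where Atm-/- was longer in 2 of 4 amplicons, and 29.6 bp without the reads that held an undetermined base. Among reads with no substitution the medians were 66.5, 89.5, 75 and 68 bp in Atm-/- and 29, 44, 168.5 and 75.5 bp in Atm+/+. These values overlap, and the mean difference was -4.50 bp (exact paired permutation p = 0.875). It was 25.2 bp without amplicon 3, 41.5 bp in the pairs of amplicons 1 and 2, and -44.4 bp without mid-amplicon ends. The Atm+/+ medians of amplicons 3 and 4 each rest on 4 deletions.

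Junctions were described next. With each deletion counted once per genotype, reads with no substitution held 144 distinct deletions in Atm-/- and 24 in Atm+/+. In Atm-/-, 46 had no microhomology (31.9%), 40 had 1 bp and 31 had 2 bp, and the longest microhomology was 9 bp. A microhomology of 2 bp or longer was present at 40.3% of the 144 (95% Clopper-Pearson interval 32.2 to 48.8) and at 50.0% of the 24 (29.1 to 70.9). For comparison, 17.2% and 17.1% of all pairs of cut positions that give deletions of the same lengths in the same amplicons would have it. Microhomology of 4 bp or more was found at 13.2% in Atm-/- (8.13 to 19.8) and at 33.3% in Atm+/+ (15.6 to 55.3), against 2.21% and 2.68% of such pairs. The intervals of the genotypes overlap at both lengths, while both genotypes lie above the share of pairs. With all reads the order at 2 bp was the other way, with 29.1% of 450 in Atm-/- (24.9 to 33.6) and 26.1% of 161 in Atm+/+ (19.5 to 33.6), and for 4 bp or more the shares were 6.22% and 10.6%. Without mid-amplicon ends the intervals did not overlap for 4 bp or more. The shares were then 15.5% of 103 in Atm-/- (9.15 to 24.0) and 58.3% of 12 in Atm+/+ (27.7 to 84.8), and over all reads 11.8% of 187 (7.52 to 17.3) and 41.2% of 34 (24.6 to 59.3). These intervals count each deletion as independent and leave out variation between libraries, so they do not test the genotypes. Of the Atm+/+ deletions counted here, those beginning at 33765176, 33765180, 33765298 and 33765369 were also found in Atm-/- and Atm+/- libraries. By length of the deletion, the share with at least 2 bp in Atm-/- was 38.6% at 11 to 59 bp, 38.3% at 60 to 149 bp and 45.0% at 150 to 229 bp.

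Library by library, at least 2 bp was present at 44.4%, 40.0%, 37.2% and 35.5% of the Atm-/- deletions in amplicons 1 to 4, and at 62.5%, 41.7%, 75% and 75% of the Atm+/+ deletions. Atm-/- was lower in 4 of 4 amplicons, with a mean difference of -24.3 percentage points (exact paired permutation p = 0.125) and one of -1.67 points in amplicon 2. The ranges of the genotypes overlap. Over all reads the difference was -17.4 points (exact paired permutation p = 0.5), and Atm-/- was lower in 2 of 4 amplicons. For 4 bp or more the mean difference was -41.3 points without substitutions and -28.8 points over all reads, with Atm-/- lower in 4 of 4 amplicons in each (exact paired permutation p = 0.125). In reads with no substitution the difference for 2 bp was -39.6 points without mid-amplicon ends. It was -4.85 points without the deletions that both genotypes held in the same amplicon, with Atm-/- lower in 3 of 4 amplicons. Deletions held by the genotypes in different amplicons were kept there, such as that beginning at 33765045 in Atm+/+ amplicons 1, 2 and 4. A different set is that of the deletions found in only 1 genotype over all amplicons, with each counted once. Of these, at least 2 bp was present at 38.4% of 138 in Atm-/- (30.3 to 47.1) and 38.9% of 18 in Atm+/+ (17.3 to 64.3), and at least 4 bp at 10.1% and 16.7%.

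**Figure D3:**
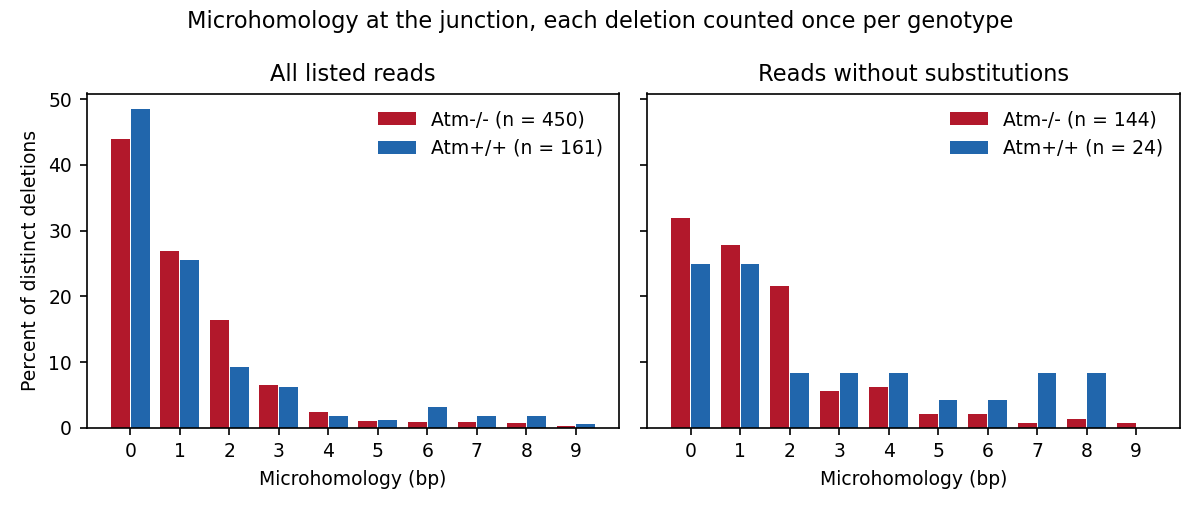
Percent of distinct deletions by length of microhomology at the junction, each deletion counted once per genotype, over all listed reads (left) and reads with no substitution (right). In the right panel the Atm-/- bars fall from 31.9% at 0 bp, and the Atm+/+ bars reach out to 8 bp but rest on 24 deletions.

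The ends of the Atm-/- deletions were not spread evenly over the stretch, but neither was the coverage. Bins of 20 bases at either edge of the stretch were read in 1 amplicon, and those from 33764988 to 33765247 in 4. The counts of ends were not corrected for this. Of the 144 Atm-/- deletions in reads with no substitution, 35 (24.3%) had their left end in the 20 bases from 33764999 to 33765018, the first capital run of the printed stretch. They were found in each amplicon, with 9, 13, 12 and 4 in amplicons 1 to 4, and were 17 to 228 bp long with a median of 75 bp. Amplicon 4 starts at 33764983 and no listed deletion began in the first 20 bases of an amplicon, so only part of this window could be read there. In Atm+/+ 0 of 24 had their left end in it, which allows a share of up to 12.5% (3 counts). With all listed reads the counts were 66 of 450 in Atm-/- and 1 of 161 in Atm+/+. Of fixed bins of 20 bases, that from 33764988 to 33765007 held the most left ends in Atm-/- in both sets of reads. Over all reads these were 77 (17.1%) in Atm-/- and 17 (10.6%) in Atm+/+. With no substitution they were 34 (23.6%) and 4 (16.7%), closer shares than in the window. Without mid-amplicon ends the bin held 43 and 2 over all reads, and 29 and 1 with no substitution. The window was picked as the densest in Atm-/- after its values were seen, so no test of it was made.

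In the same reads, right ends were densest further to the right. Of the Atm-/- deletions 25 of 144 (17.4%) had their right end between 33765050 and 33765069, the second capital run, with 9, 9, 8 and 3 in amplicons 1 to 4, against 0 of 24 in Atm+/+ (up to 12.5% by the same limit). With all reads the counts were 40 of 450 and 2 of 161, and the fixed bin with the most in Atm-/-, 33765188 to 33765207, held 45 right ends, against 0 in Atm+/+. That bin lies in the central stretch of amplicon 3, 33765183 to 33765223, and without mid-amplicon ends it held 6 in Atm-/-. Between the 2 dense windows ran 12 Atm-/- deletions, which were 34 to 68 bp long with a median of 59 bp. The second window also held left ends, 16 in Atm-/- and 1 in Atm+/+, in reads with no substitution. Over all reads this count was 35 of 450 (7.78%) in Atm-/- and 21 of 161 (13.0%) in Atm+/+, of which 20 lay in amplicon 2. A further 15 right ends in Atm-/- lay between 33765119 and 33765138, and 0 in Atm+/+ in reads with no substitution. Over all reads that window held 19 in Atm-/- and 15 in Atm+/+, and all 15 of the latter lay in amplicon 2 and had a mid-amplicon end.

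The first dense window held few right ends in Atm-/-. The layout of the amplicons limits right ends there, in both genotypes, and the counts were not corrected for it. Amplicon 4 starts at 33764983 and could list few deletions that end in this window. Amplicon 3 starts at 33764915 and could list only the shorter ones. In reads with no substitution the first dense window held the right end of 2 Atm-/- deletions and of 4 Atm+/+ deletions. The latter were all in amplicon 1, with an end in its central stretch, 33764955 to 33764995. Over all reads the counts were 5 of 450 in Atm-/- and 27 of 161 in Atm+/+ (16.8%), all 27 in amplicon 1 and with a mid-amplicon end. In Atm-/- the second dense window held left and right ends in closer numbers. These were 16 and 25 with no substitution, and 35 and 40 over all reads. Down to the base, in reads with no substitution, 6 Atm-/- deletions each began at 33764999, 33765000 and 33765002. In the same reads 4 each ended at 33765053, 33765123 and 33765138. A left end shared with another deletion was found for 65 of 144 Atm-/- deletions (45.1%) and 6 of 24 in Atm+/+ (25.0%), and a shared right end for 56 (38.9%) and 11 (45.8%). Over all reads the shares were 67.3% and 65.8% for left ends and 60.7% and 62.1% for right ends. The chance that ends coincide grows with the number of deletions, so these shares are not comparable between the genotypes. Median positions of the ends, measured from the amplicon start, depended on which deletions were counted. In reads with no substitution the mean difference was -12.0 bp for left ends (exact paired permutation p = 0.625) and -10.6 bp for right ends (exact paired permutation p = 0.75). Without mid-amplicon ends it was -106.9 bp, with Atm-/- further left in 3 of 4 amplicons, and -123.4 bp, in 4 of 4. Requiring at least 2 reads gave -126.1 bp and -46.8 bp. Over all reads the left ends lay further left in Atm-/- in 4 of 4 amplicons, by -76.0 bp in the mean (exact paired permutation p = 0.125), and the right ends differed by -54.8 bp (exact paired permutation p = 0.5). Amplicon 3 alone differed by -206.0 bp and -176.0 bp, and without it the means were -32.7 bp and -14.3 bp.

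**Figure D4:**
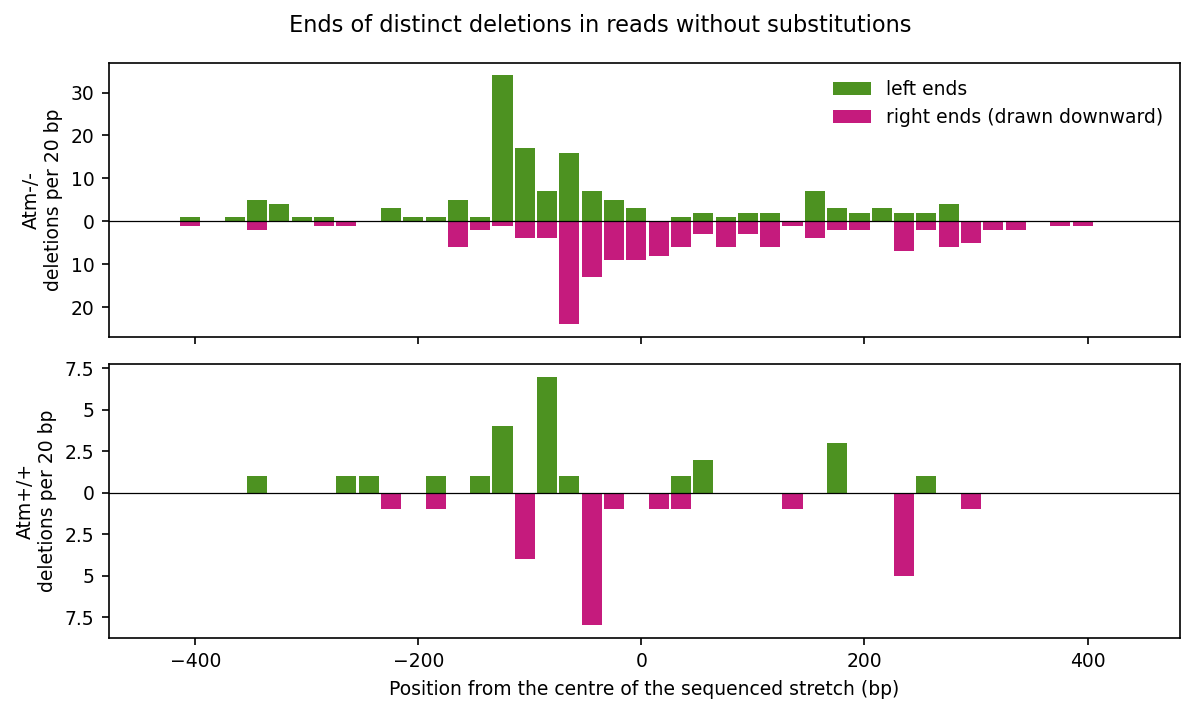
Left ends (upward) and right ends (drawn downward) of distinct deletions in 20-bp bins, in reads with no substitution, by position from the centre of the sequenced stretch; the vertical scales differ between the genotypes. The tallest Atm-/- bars are the left ends in the bin at -124.5 bp and the right ends in the bin at -64.5 bp, while the 24 Atm+/+ deletions peak in other bins.

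Recurrence across amplicons was low in both genotypes. Of the Atm-/- deletions in reads with no substitution that at least 2 amplicons could hold, 6 of 131 were found in at least 2 (4.58%, Clopper-Pearson interval 1.70 to 9.70), and of those in Atm+/+ 2 of 23 (8.70%, 1.07 to 28.0). Over all reads the shares were 4.49% of 401 and 3.21% of 156. The 6 recurrent Atm-/- deletions were 30 to 223 bp long with 0 to 2 bp of microhomology and 20 reads together, and none was found in a library of another genotype. Of these, 5 had no mid-amplicon end, and 3 ran from the first dense window to the second. Their junctions are printed because they are the deletions seen in more than 1 separate PCR; capitals mark the retained copy of the microhomology, where there is one, between 15 bases of flank on each side.
chr1:33764999-33765052, 54 bp: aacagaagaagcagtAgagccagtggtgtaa
chr1:33765000-33765064, 65 bp: acagaagaagcagtagtaacggagaaggaa
chr1:33765002-33765053, 52 bp: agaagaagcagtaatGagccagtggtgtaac
chr1:33765023-33765138, 116 bp: acaacgtgagggctgaggcatcatcaggaa
chr1:33765032-33765061, 30 bp: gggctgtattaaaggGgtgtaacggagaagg
chr1:33765055-33765277, 223 bp: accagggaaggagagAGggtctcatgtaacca

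The first 3 of these begin within 4 bases of each other and end within 13, and they are distinct products rather than shifted placements of 1 deletion. The deletion of 52 bp had 0, 2, 4 and 0 reads with no substitution in amplicons 1 to 4, and 1, 4, 6 and 0 over all reads. That of 65 bp had 2, 0, 1 and 0, and that of 54 bp 1, 0, 1 and 0. The deletion of 116 bp had 2 reads in amplicon 2 and 1 read in amplicon 4. That of 30 bp had 1 read each in amplicons 1 and 4, and that of 223 bp 2 reads each in amplicons 3 and 4. Each was thus seen at 1 to 4 reads per library, a level at which absence from another amplicon was not detectable at this depth.

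**Figure D5:**
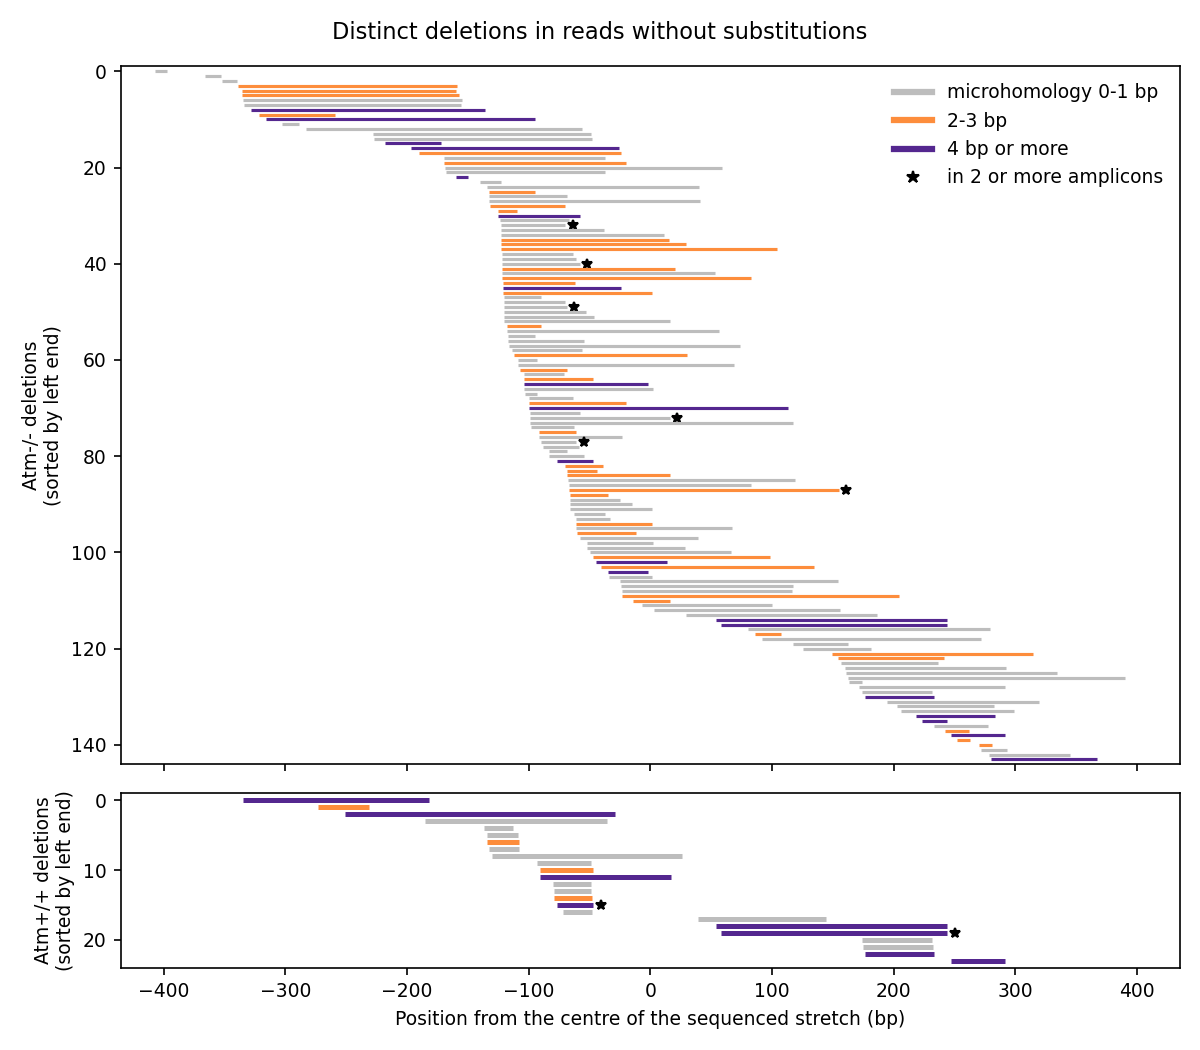
Each distinct deletion in reads with no substitution as a line from its left to its right end, by position from the centre of the sequenced stretch, sorted by left end, for Atm-/- (144, upper) and Atm+/+ (24, lower). Colour gives the microhomology and stars mark deletions found in at least 2 amplicons; a column of Atm-/- lines starts near the bin at -124.5 bp and runs to many different right ends.

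Deletions found in both genotypes numbered 6 in reads with no substitution, or 4.17% of the 144 in Atm-/- and 25.0% of the 24 in Atm+/+. They held 6 of 217 Atm-/- reads (2.76%) and 38 of 87 Atm+/+ reads (43.7%). Their median microhomology was 6.5 bp, and 5 of 6 had at least 4 bp. Over all reads 17 were shared, 3.78% of 450 in Atm-/- and 10.6% of 161 in Atm+/+, with a median of 3 bp, of which 8 had at least 4 bp and 6 had none. All 6 in reads without substitutions were also found in Atm+/- libraries, and 4 of them in Spo11-/- libraries, which lack meiotic breaks. Of all distinct deletions in reads with no substitution, 6.94% in Atm-/- and 37.5% in Atm+/+ were found in a library of those other genotypes.

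Of these, 5 remove the DNA between copies of a short repeat, together with 1 copy, and the other has no microhomology. The 3 with the longest microhomology are printed with their flanks, and capitals mark the copies of the repeat in the intact sequence.
chr1:33765045-33765075, 31 bp: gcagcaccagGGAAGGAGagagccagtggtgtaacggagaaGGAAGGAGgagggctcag
chr1:33765176-33765366, 191 bp: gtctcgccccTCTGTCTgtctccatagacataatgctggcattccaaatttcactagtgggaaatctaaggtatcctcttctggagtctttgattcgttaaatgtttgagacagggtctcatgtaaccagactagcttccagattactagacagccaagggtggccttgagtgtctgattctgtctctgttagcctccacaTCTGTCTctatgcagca
chr1:33765180-33765366, 187 bp: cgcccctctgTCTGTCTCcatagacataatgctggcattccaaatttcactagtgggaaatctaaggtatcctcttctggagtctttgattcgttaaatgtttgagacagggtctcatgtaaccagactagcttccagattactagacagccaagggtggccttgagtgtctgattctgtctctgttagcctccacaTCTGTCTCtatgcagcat

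The deletion of 31 bp between the GGAAGGAG repeats had 1, 22, 1 and 1 reads with no substitution in Atm+/+ amplicons 1 to 4, and 0, 0, 1 and 0 in Atm-/-. Its right end lies in the central stretch of amplicon 2, the amplicon that gave 22 of these 25 Atm+/+ reads. The deletions of 191 and 187 bp end at the same TCTGTCT repeat. That of 191 bp had 3 reads in Atm+/+ amplicon 3 and 1 read in Atm-/- amplicon 3, and that of 187 bp 1 read in each of amplicons 3 and 4 of Atm+/+ and 1 read in Atm-/- amplicon 3. A deletion of 45 bp, 33765369 to 33765413, with 6 bp of microhomology had 2 reads in Atm+/+ amplicon 4 and 1 read in Atm-/- amplicon 4. The remaining pair, both of 58 bp and starting 2 bases apart, had 4 and 2 reads in Atm+/+ amplicon 2 and 1 read each in Atm-/- amplicon 2. In every one of these cases Atm-/- had 1 read, so the levels cannot be compared between the genotypes.

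In Atm-/- the deletions with the most reads were not the recurrent ones. Over all reads 33764783 to 33764963 led (181 bp, 3 bp of microhomology), with 75 reads in amplicon 1, of which 6 had no substitution. The next, 33765282 to 33765480 (199 bp, 1 bp), had 42 reads in amplicon 4 and none of them was free of substitutions. After it came 33764787 to 33764967 (181 bp, 1 bp), with 28 reads in amplicon 1 and 5 free of substitutions. These 3 had a mid-amplicon end and were found in no Atm+/+ library. In Atm+/+ the deletion of 31 bp between the repeats led, followed by 33765043 to 33765073 (31 bp, 1 bp), with 126 reads in amplicon 2, and 33764989 to 33765014 (26 bp, 0 bp), with 96 reads in amplicon 1. These too had a mid-amplicon end, and of the reads of the last pair 9 and 14 had no substitution. The leading deletions were thus long in Atm-/- and short in Atm+/+.

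Among the Atm-/- deletions without a mid-amplicon end, counted in reads with no substitution, that of 52 bp described above had the most, with 6 reads. It was followed by 33765001 to 33765060 (60 bp, 2 bp of microhomology), with 5 reads in amplicon 2, and 33765054 to 33765241 (188 bp, 0 bp), with 4 reads in amplicon 4. Their left ends lie in the windows 33764999 to 33765018 and 33765051 to 33765070, the densest in left ends and the densest beside it. The latter held 18 left ends in Atm-/-, with 3, 4, 7 and 5 in amplicons 1 to 4, and 0 of 24 in Atm+/+. Over all reads it held 37 of 450 (8.22%) in Atm-/- and 19 of 161 (11.8%) in Atm+/+, of which 18 had a mid-amplicon end in amplicon 2. No read of an Atm+/+ library held any of these 3 deletions.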

How the data were processed

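Each file lists the distinct aligned reads of 1 library that hold exactly 1 deletion, in the column layout of CRISPResso. Per the file headers the authors deposited a count of reads per aligned sequence, and the same as a percent of the library; their quotient gave the library's total. How reads were aligned and filtered is not stated in the labels or headers. Positions refer to mm10 (per the submitters' processing notes). Listed deletions were 2 to 229 bp long. Of 35136 rows, 19 were left out because their length differed from the amplicon's. The intact sequence was the consensus of the rows of all 16 libraries, in which the commonest base made up at least 93.3% of determined bases beyond 20 bp from the ends. Deletions were shifted fully to the left, and the number of bases a deletion can be shifted by is its microhomology.

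Rates were compared as log2 of (count + 0.5) per 1e6 reads. Genotypes were exchanged within amplicons over 16 sign patterns in a two-sided exact permutation test, since the number in the titles names the amplicon. The 12 tests made this way cannot pass 0.05 before or after adjustment. Rate ratios have exact conditional intervals. All intervals are at 95%. Python 3.11.15, pandas 2.3.3 and scipy 1.17.1 were used, and placement was tested on simulated data.

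Deletions named are, per genotype, the 8 with the most reads in at least 2 amplicons, the 2 with the most reads in each library, the 8 with the most reads found in both genotypes, the 3 with the longest microhomology and the 3 with the most reads overall. Of these 29, those that the comparisons turn on are described. The libraries, classes and windows were chosen with earlier results of these data known. Alternatives were the pairing, read minimum, placement, pseudocount, shortest length, microhomology minimum, the letter in the library name, reads with undetermined bases, middle ends, shared deletions and leaving out each amplicon.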

Additional observations from a re-analysis of the deposited data

How the results depend on the processing

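With 4 pairs of libraries the paired exact permutation test cannot pass 0.05, so none of its p-values measures stability. With no replicate block, genotypes were exchanged over all 8 libraries. The log2 differences of 2.41 and 2.69 in deletions of 11 bp or more then passed 0.05. So did that of -0.13 in those of 2 to 10 bp with no substitution, and the difference of 87.9 bp in median length (exact permutation p = 0.0286 for each of these). This exchange sets the pairing by amplicon aside, and its p-values were not adjusted for the number of results tested. For deletions of 11 bp or more, leaving out each amplicon in turn gave 1.88 to 2.85 over all reads and 2.54 to 2.85 with no substitution. The difference in short deletions over all reads turned to 0.000487 with placement as listed, to 0.15 in the pairs of amplicons 3 and 4, and ran from -0.11 to 0.046 with each amplicon left out. In reads with no substitution the difference in median length turned to 71.5 bp with at least 2 reads per deletion, to 41.5 bp in the pairs of amplicons 1 and 2 and to 1.13 bp from 30 bp up, and ran from -21.2 to 25.2 bp with each amplicon left out. In the pairs of amplicons 1 and 2 the microhomology difference over all reads turned to 5.57 points and the right-end differences to 22.5 bp over all reads and 32.8 bp with no substitution. With each amplicon left out, the left and right ends with no substitution ran from -28.5 to 2.50 bp and from -28.2 to 11.2 bp. Requiring at least 2 reads lowered the shared deletions from 17 to 6 over all reads and from 6 to 0 with no substitution, and Atm+/+ recurrence with no substitution to 0 of 10. Without mid-amplicon ends 11 were shared over all reads, and recurrence was 7.14% in Atm-/- and 12.9% in Atm+/+. The causes were not tested. The other 135 values kept their direction or stayed within the spread used, which says nothing of significance, and 47 of them moved by over 1.5 times, among them median length over all reads, from 87.9 to 4.00 bp without mid-amplicon ends. Of the distinct deletions with no substitution, 109 of 150 in Atm-/- and 18 of 28 in Atm+/+ rest on 1 read, which limits every share given for them.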

Other observations

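At the 46 Atm-/- junctions without microhomology, in reads with no substitution, the first deleted base was G in 15 (32.6%) and T in 15 (32.6%), where the stretch holds 22.7% G and 25.4% T. The last deleted base was A in 16 (34.8%), against 30.7% of the stretch. Several of these junctions begin at the same base, among them those at 33765002 and 33765056, both G. The counts are thus not of separate positions, and the whole stretch is only a rough reference for clustered ends. In Atm+/+ only 6 junctions without microhomology were found, and none of these values was tested.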
